A study of Mus musculus with 8 samples.

Results

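To describe phosphocholine and phosphatidylcholine metabolism in the liver of *Apoe*-/- mice given isoginkgetin (ISOGK), 9 genes were followed: *Phospho1*, *Chka*, *Chkb*, *Pemt*, *Pcyt1a*, *Pcyt2*, *Etnk1*, *Etnk2* and *Cept1*. They were matched by symbol in a table of read counts for 16540 genes, and all 9 were among the 12307 genes with enough counts to be tested. The genes were chosen by role in the pathway and by the measured difference in *Phospho1* between these same mice, so the values of the 9 genes are given as a description and no test is read from them. The deposited series gives the mice as male and as lacking *Apoe*, which clears lipoprotein remnants from blood, so that the mice become hypercholesterolemic and prone to atherosclerosis. All 8 mice carried this genotype and were fed a Western diet that the methods describe as high in cholesterol. After 7 weeks of diet, 4 mice received ISOGK, a biflavonoid of *Ginkgo biloba*, by intraperitoneal injection at 20 mg/kg per day for 8 weeks, and 4 mice received vehicle. The ages of the mice are not given in the sources used here, and the knockout is in every cell of the animal rather than in hepatocytes alone.

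Phosphatidylcholine is the most abundant phospholipid of liver membranes and of the surface of secreted lipoproteins. The liver makes it from choline, which is phosphorylated to phosphocholine, activated with CTP and joined to diacylglycerol, and also by methylating phosphatidylethanolamine, which is itself made from ethanolamine by parallel steps. Phospho1 is a phosphatase of phosphocholine and phosphoethanolamine, best known for its part in the mineralization of bone and cartilage.

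Each sample, taken here as 1 mouse, gave 1 liver library. The counted reads numbered 19605286 to 24461854 for vehicle-treated mice and 17457106 to 21626399 for ISOGK-treated mice. Levels are given as CPM, the reads of a gene as a share of its library, scaled by edgeR's TMM factors, which correct for differences in composition between libraries. Markers of hepatocytes (5 of 6 listed were in the table) summed to 135600 to 147500 CPM with vehicle and 122500 to 158500 CPM with ISOGK. Of 8 bone and cartilage markers, the tissue for which *Phospho1* is best known, 2 were in the table, and they summed to at most 0.0447 CPM with vehicle and 0.105 CPM with ISOGK. Erythroid markers (8 of 8 in the table) summed to 102.1 to 130.4 CPM and 69.3 to 153.4 CPM, adipocyte markers (2 of 6) to 1.07 to 1.44 CPM and 1.02 to 2.11 CPM, Kupffer cell markers (6 of 6) to 924.4 to 1195 CPM and 732.9 to 958.4 CPM, and stellate cell markers (6 of 6) to 327.0 to 437.5 CPM and 262.4 to 484.9 CPM, in the same order of groups. Of the markers so far, 5 hepatocyte, 0 bone and cartilage, 5 erythroid, 1 adipocyte, 6 Kupffer cell and 6 stellate cell markers were tested. None of those tested was called different. The erythroid sum hid opposite patterns. *Alas2*, its largest part, was at 58.3 to 80.4 CPM with vehicle and 40.1 to 68.0 CPM with ISOGK. *Hbb-bs* was at 14.5 to 18.1 CPM with vehicle and 38.7, 42.4, 10.4 and 38.4 CPM in ISOGK-treated mice 1 to 4. *Hba-a1*, *Hba-a2* and *Hbb-bt* also lay above every vehicle-treated mouse in ISOGK-treated mice 1, 2 and 4, but not in mouse 3. Of the Kupffer cell markers, *Cd5l*, the largest part, was at 576.7 to 667.1 CPM with vehicle and 407.2 to 560.4 CPM with ISOGK. The groups overlapped for the others. Vehicle-treated mouse 1 had the lowest *Clec4f* (73.0 CPM) and the highest *Marco* (170.4 CPM) of all mice. ISOGK-treated mouse 4 had the lowest *Vsig4* (5.34 CPM). Cholangiocyte markers (5 of 5) summed to 27.5 to 34.8 CPM and 28.2 to 69.1 CPM, and 1 of them, *Sox9*, was called higher with ISOGK. *Spp1*, the largest part, was at 19.9 to 27.9 CPM with vehicle and 35.7, 55.0, 35.3 and 20.5 CPM in ISOGK-treated mice 1 to 4. *Krt19* and *Krt7* also lay above every vehicle-treated mouse in ISOGK-treated mice 1, 2 and 3, but not in mouse 4. *Epcam* did so in ISOGK-treated mouse 2 alone. The library of vehicle-treated mouse 4 stood apart in that all 10 skeletal muscle markers were highest there, where each had 27 to 451 counts while no other library passed 9. *Apoe* itself was counted at 163.2 to 217.7 CPM with vehicle and 203.4 to 342.5 CPM with ISOGK, so the genotype rests on the labels.

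*Phospho1* was the member with the widest difference between the groups. It had 37, 29, 40 and 68 counts in vehicle-treated mice 1 to 4, and 159, 569, 216 and 933 counts in ISOGK-treated mice 1 to 4. After normalization these were 1.86, 1.15, 1.56 and 3.04 CPM with vehicle and 7.80, 30.03, 12.2 and 48.9 CPM with ISOGK. Every ISOGK-treated mouse lay above every vehicle-treated mouse, with mouse 1 of the ISOGK group 2.57 times the highest vehicle-treated mouse, while the ISOGK-treated mice differed 6.27-fold among themselves. The mean was 1.90 ± 0.812 CPM (SD, n = 4) with vehicle and 24.7 ± 18.8 CPM (SD, n = 4) with ISOGK, a ratio of 13.0. The log2 fold change from the edgeR fit of the whole table was 3.71 (SE 0.69). In bulk tissue, a change in the number of cells that carry a transcript and a change in RNA per cell cannot be told apart.

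*Phospho1* lies on chromosome 11 at 95824499 to 95832140 (GRCm38, plus strand), within the span of other genes. Of its annotated exon bases, 1818 (89.6%) are shared with *Zfp652* on the same strand, through a long *Zfp652* transcript annotated as a target of nonsense-mediated decay, and 1708 (84.2%) with *Abi3* on the opposite strand. Whether counting used strand is not given in the sources used here, so the level of *Phospho1* could hold reads of these genes or the reverse. *Zfp652*, a zinc finger gene, was at 34.2 ± 1.11 CPM (SD, n = 4) with vehicle and 33.9 ± 3.76 CPM (SD, n = 4) with ISOGK, with a log2 fold change of -0.01 (SE 0.10, edgeR quasi-likelihood test, adjusted p = 0.951). *Abi3*, which encodes an adaptor of the actin cytoskeleton, was at 10.9 ± 1.38 CPM (SD, n = 4) and 10.9 ± 1.52 CPM (SD, n = 4), with a log2 fold change of -0.01 (SE 0.14, edgeR adjusted p = 0.98). For neither gene was the difference larger than the spread of the mice, and the sign of both depended on which mouse was left out. How reads were divided between *Phospho1* and these genes was not tested. *Zfp652* and *Abi3* were added after their values were seen.

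**Figure D1:**
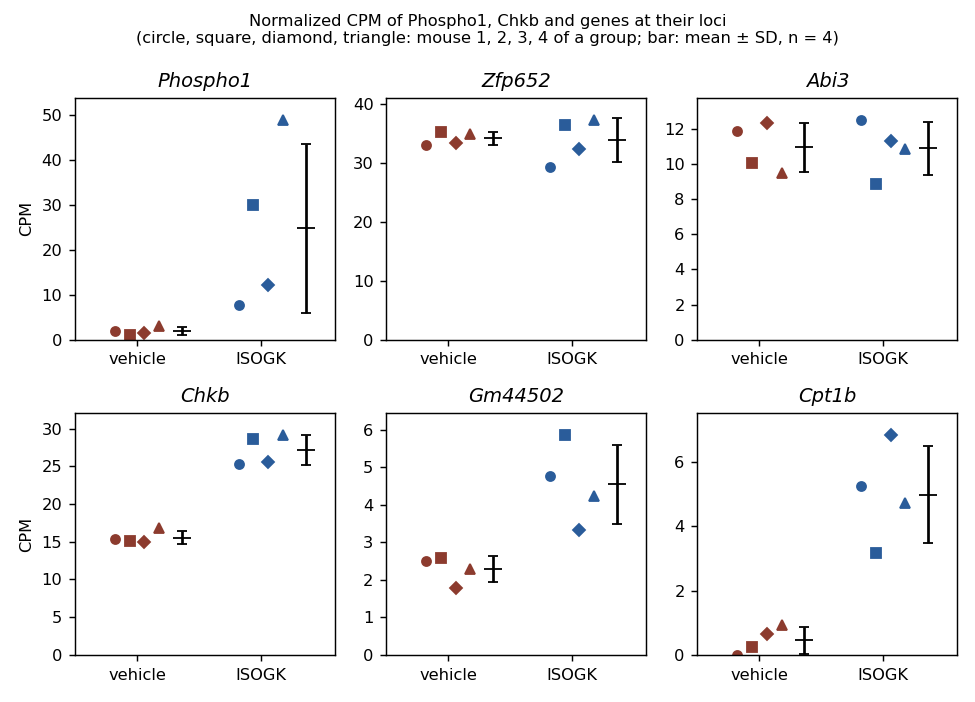
Normalized CPM (y axes, linear from 0) of *Phospho1* with the overlapping genes *Zfp652* and *Abi3*, and of *Chkb* with the read-through gene *Gm44502* and the adjacent *Cpt1b*, in 4 vehicle-treated (red) and 4 ISOGK-treated (blue) mice; symbols mark mice 1 to 4 and bars the mean ± SD. The groups overlapped for *Zfp652* and *Abi3*, while they did not overlap for *Phospho1*, *Chkb*, *Gm44502* and *Cpt1b*.

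The choline kinases, which make the phosphocholine that Phospho1 can hydrolyze, were both higher on average with ISOGK. *Chkb* (chromosome 15, 89426360 to 89429908, minus strand) was at 15.3, 15.1, 14.9 and 16.9 CPM in vehicle-treated mice 1 to 4 and at 25.3, 28.6, 25.6 and 29.1 CPM in ISOGK-treated mice 1 to 4. The groups did not overlap and the mice of each group lay close together, with means of 15.6 ± 0.901 CPM and 27.2 ± 1.98 CPM (SD, n = 4 each), a ratio of 1.75 and a log2 fold change of 0.80 (SE 0.10). *Chka* (chromosome 19, 3851773 to 3894369, plus strand) was at 27.3, 27.5, 20.9 and 40.3 CPM with vehicle and at 19.1, 63.1, 52.3 and 54.5 CPM with ISOGK. Mice 2 to 4 of the ISOGK group lay above the vehicle-treated mice and mouse 1 lay below all of them, so that the groups overlapped (29.0 ± 8.13 and 47.2 ± 19.3 CPM, SD, n = 4 each, log2 fold change 0.70, SE 0.36).

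The *Chkb* locus also holds a read-through gene. *Gm44502* joins *Chkb* to its downstream neighbor *Cpt1b*, which encodes the muscle form of the carnitine palmitoyltransferase that admits fatty acids to mitochondria, and it shares 1552 (50.7%) of the exon bases of *Chkb* on the same strand. *Gm44502* had 50, 65, 46 and 51 counts in vehicle-treated and 97, 111, 59 and 81 counts in ISOGK-treated mice 1 to 4, with a log2 fold change of 0.99 (SE 0.21, edgeR adjusted p = 0.0147). *Cpt1b* had 0, 6, 17 and 21 counts with vehicle and 107, 60, 121 and 90 counts with ISOGK, with a log2 fold change of 3.40 (SE 0.55, edgeR adjusted p = 0.00727). In normalized CPM, *Gm44502* was at 1.79 to 2.57 with vehicle and 3.34 to 5.86 with ISOGK, and *Cpt1b* at 0 to 0.938 and 3.17 to 6.84, without overlap, while the raw counts of *Gm44502* overlapped. How reads were divided between the 3 genes was not tested. *Gm44502* and *Cpt1b* were added after their values were seen, and *Gm44502* shares bases with *Chkb*, so their adjusted p-values are given as a description. The skeletal muscle markers summed to 0 to 82.3 CPM with vehicle, highest in mouse 4, and to 0.226 to 0.589 CPM with ISOGK. The part of muscle transcripts in the *Cpt1b* counts was not tested.

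The later steps of the choline route showed small differences. *Pcyt1a* encodes the enzyme that turns phosphocholine into CDP-choline and is held to set the pace of the route. *Pcyt1a* was at 67.2, 64.2, 66.8 and 70.3 CPM in vehicle-treated mice and 64.3, 74.7, 78.6 and 68.8 CPM in ISOGK-treated mice (log2 fold change 0.09, SE 0.09). *Cept1*, whose product joins CDP-choline or CDP-ethanolamine to diacylglycerol, was at 50.03, 52.1, 54.1 and 49.0 CPM with vehicle and 58.0, 54.8, 51.8 and 56.6 CPM with ISOGK (log2 fold change 0.11, SE 0.08). The groups overlapped for both genes, and scaling by library size alone turned their log2 fold changes to -0.04 for *Pcyt1a* and -0.02 for *Cept1*; that scaling moved the median of all genes tested to -0.13.

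*Pemt*, which encodes the enzyme that methylates phosphatidylethanolamine to phosphatidylcholine and is a liver enzyme, was at 103.5, 137.8, 122.9 and 144.4 CPM in vehicle-treated mice and 112.5, 129.0, 92.1 and 146.6 CPM in ISOGK-treated mice. The groups covered nearly the same range, with a log2 fold change of -0.08 (SE 0.15) that turned to 0.02 without ISOGK-treated mouse 3.

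Of the ethanolamine branch, *Etnk2* showed the widest difference. *Etnk2* (chromosome 1, 133363572 to 133380336, plus strand), an ethanolamine kinase gene expressed in liver, was at 200.01, 211.3, 169.3 and 198.0 CPM with vehicle and 185.6, 153.0, 109.9 and 88.8 CPM with ISOGK. Mice 2 to 4 of the ISOGK group lay below every vehicle-treated mouse and mouse 1 lay within the vehicle range, with means of 194.6 ± 17.9 and 134.3 ± 43.4 CPM (SD, n = 4 each) and a log2 fold change of -0.54 (SE 0.20). *Etnk1*, the other ethanolamine kinase gene, was at 87.6, 81.6, 76.7 and 75.2 CPM with vehicle and 66.8, 74.2, 84.2 and 80.8 CPM with ISOGK (log2 fold change -0.07, SE 0.10). *Pcyt2*, whose product makes CDP-ethanolamine, was at 105.2, 130.7, 123.9 and 159.5 CPM with vehicle and 137.4, 165.6, 127.3 and 143.3 CPM with ISOGK (log2 fold change 0.14, SE 0.13). The groups overlapped for all 3 genes.

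**Figure D2:**
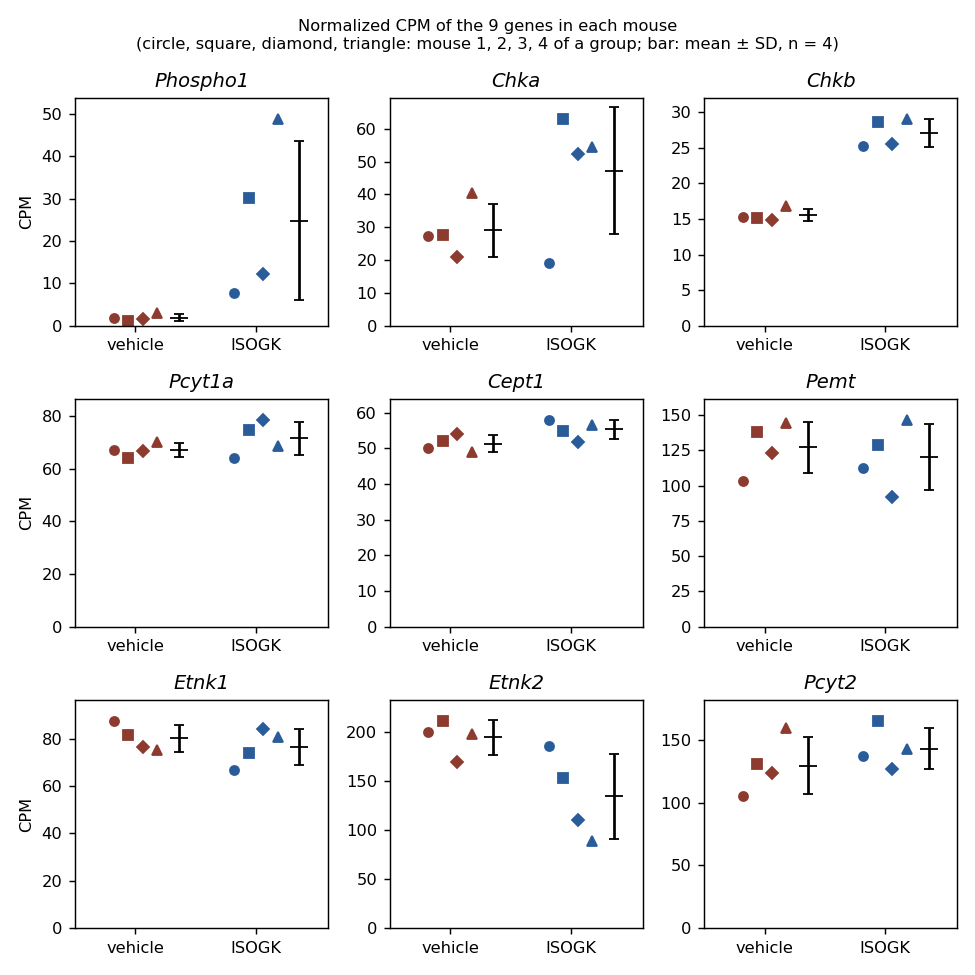
Normalized CPM (y axes, linear from 0) of the 9 genes in each of 4 vehicle-treated (red) and 4 ISOGK-treated (blue) mice; the symbol gives the mouse number within its group, which does not pair mice, and bars show the mean ± SD. The groups do not overlap for *Phospho1* and *Chkb*, ISOGK-treated mouse 1 stands apart from mice 2 to 4 of its group for *Chka*, and *Etnk2* is lower in mice 2 to 4 of the ISOGK group.

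In the fit of the whole table, 2 of the 9 genes, *Phospho1* and *Chkb*, were called higher with ISOGK at an adjusted p under 0.05 and 0 were called lower, beside 7.55% of all genes tested that were called (4.11% higher and 3.44% lower). With a log2 fold change over 1 in addition, 1 of the 9 was called, and it was higher, beside 1.63% of all genes in either direction and 0.999% higher. The groups did not overlap for 2 of the 9, beside 15.3% of all genes. Since the set was chosen with this contrast in view, nothing is read from these counts. The median log2 fold change of the 9 genes was 0.11, with 6 positive and 3 negative values, and that of all genes tested was 0.0018.

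Which of the 9 genes were called depended on single mice for *Phospho1*, *Chka* and *Etnk2*. The alternatives reuse the mice by which the set was chosen, so they describe the processing and no test is read from them. *Chkb* was called under all 16 alternative settings, with log2 fold changes of 0.67 to 0.85. *Phospho1* was no longer called without ISOGK-treated mouse 2 (log2 fold change 3.60) or without vehicle-treated mouse 1 (3.70), 2 (3.52), 3 (3.62) or 4 (4.03), which left 1 gene called in each case, and its log2 fold change without ISOGK-treated mouse 4, the highest, was 3.14. When ISOGK-treated mouse 1 was left out, *Chka* had a log2 fold change of 0.97 and *Etnk2* of -0.73, and 4 of the 9 genes were then called.

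**Figure D3:**
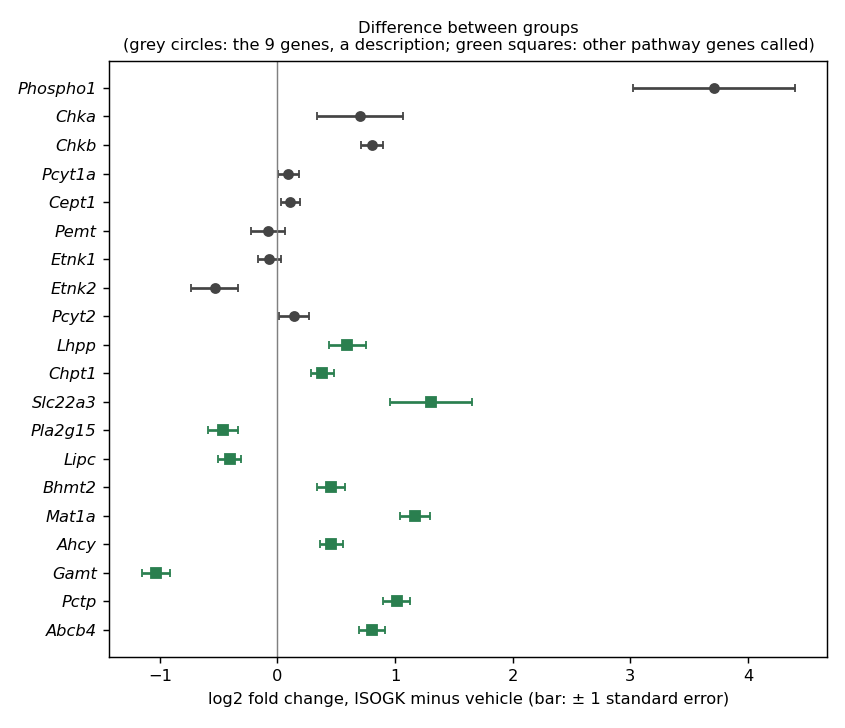
Log2 fold change, ISOGK minus vehicle (x axis), with bars of ± 1 standard error derived from the F statistic of the edgeR test, for the 9 genes (grey circles, given as a description) and for the 11 other genes of the pathway called at an adjusted p under 0.05 (green squares). *Phospho1* has the widest difference at 3.71 and also the widest bar, *Slc22a3* follows at 1.31, and *Gamt* is lowest at -1.03.

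The mice of the ISOGK group differed more among themselves than those of the vehicle group for most of these genes. The coefficient of variation was larger with ISOGK for 8 of the 9 genes (88.9%), beside 8382 of the 12307 genes tested (68.1%). It was 42.8% with vehicle and 75.8% with ISOGK for *Phospho1*, 28.1% and 40.9% for *Chka*, and 9.18% and 32.3% for *Etnk2*, and *Pcyt2* was the exception at 17.4% and 11.3%. ISOGK-treated mouse 1 was the lowest of its group for *Phospho1*, *Chka*, *Chkb*, *Pcyt1a* and *Etnk1* and the highest for *Etnk2* and *Cept1*. In the vehicle group, mouse 4, whose library held the skeletal muscle transcripts, was the highest for *Phospho1*, *Chka*, *Chkb*, *Pemt*, *Pcyt1a* and *Pcyt2*, and the part of those transcripts in its values was not tested.

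Since *Phospho1*, *Chka* and *Etnk2* differed most between ISOGK-treated mice (6.27-fold, 3.30-fold and 2.09-fold from the lowest to the highest mouse), the bases just before their annotated starts are shown, on the strand of the gene and from RefSeq on GRCm38.p6. The *Phospho1* window is chr11:95824250-95824498, the *Chka* window chr19:3851523-3851771 and the *Etnk2* window chr1:133363322-133363570, all on the plus strand. Capitals mark matches, on either strand, to the CCAAT box with those letters, to the GC box written GGGCGG, to the start of the cyclic AMP response element written TGACG, to the nuclear receptor element written AGGTCA, or to the E-box written CACGTG. Matches may overlap, as for a pair of GC boxes in *Phospho1* and in *Etnk2*.
Phospho1: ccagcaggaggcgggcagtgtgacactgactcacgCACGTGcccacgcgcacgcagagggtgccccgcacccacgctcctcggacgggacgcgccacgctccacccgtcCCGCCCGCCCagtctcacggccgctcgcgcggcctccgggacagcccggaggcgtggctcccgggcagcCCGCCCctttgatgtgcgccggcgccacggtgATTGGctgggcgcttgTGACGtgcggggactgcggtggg
Chka: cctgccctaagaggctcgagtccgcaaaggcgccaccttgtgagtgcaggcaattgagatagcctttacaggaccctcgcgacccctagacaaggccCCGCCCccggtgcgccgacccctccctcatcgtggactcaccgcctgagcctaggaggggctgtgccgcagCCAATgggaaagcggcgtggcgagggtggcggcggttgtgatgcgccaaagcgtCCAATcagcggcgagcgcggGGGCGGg
Etnk2: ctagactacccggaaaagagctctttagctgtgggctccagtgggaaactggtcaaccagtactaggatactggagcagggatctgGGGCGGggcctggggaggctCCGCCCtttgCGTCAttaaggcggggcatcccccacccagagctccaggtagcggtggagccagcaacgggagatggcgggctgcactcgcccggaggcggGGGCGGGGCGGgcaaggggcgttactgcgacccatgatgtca
All 3 windows were rich in G and C, with 75.5% in *Phospho1*, 67.9% in *Chka* and 65.1% in *Etnk2*, beside a median of 52.2% over 32851 windows of the same length. *Phospho1* held 1 match to CCAAT, 3 to GGGCGG, 1 to TGACG and 1 to CACGTG, *Chka* held 2 to CCAAT and 2 to GGGCGG, and *Etnk2* held 4 to GGGCGG and 1 to TGACG. None of the 3 windows held AGGTCA. Of all windows, 33.8% held CCAAT, 32.6% GGGCGG, 17.7% TGACG, 14.0% AGGTCA and 6.0% CACGTG. These matches describe the letters only.

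To compare levels between genes, CPM were divided by the length of the merged exons. In vehicle-treated mice the order of these levels per kilobase was *Pemt* (60.4 CPM per kb), *Etnk2* (42.6), *Pcyt2* (29.9), *Cept1* (16.5), *Pcyt1a* (9.06), *Etnk1* (5.67), *Chkb* (5.08), *Chka* (2.41) and *Phospho1* (0.936). Neighbors in this order did not overlap between mice, except *Etnk1* and *Chkb*. With ISOGK, *Pemt* remained first at 57.1 CPM per kb, and *Pcyt2* (33.0) and *Etnk2* (29.4) overlapped. *Phospho1* moved from place 9 to place 5 at 12.2 CPM per kb, where its mice, at 3.84 to 24.1 CPM per kb, overlapped those of *Cept1* (17.8) above it and *Pcyt1a* (9.66) below it. *Chkb* (8.87) overlapped *Pcyt1a*, and *Etnk1* (5.41) overlapped *Chka* (3.93). Divided by the longest coding transcript instead, a choice made after the data were seen, *Phospho1* was still at place 9 with vehicle and was at place 8 with ISOGK, so that its move past *Pcyt1a*, *Chkb* and *Chka* rests on the length used.

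**Figure D4:**
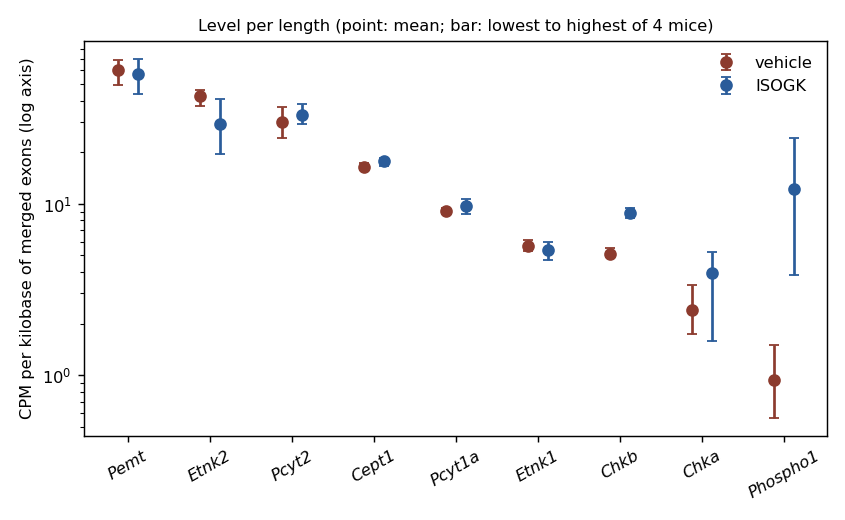
Level per length in CPM per kilobase of merged exons (y axis, logarithmic) of the 9 genes in the order of their vehicle means; points are means and bars run from the lowest to the highest of 4 mice, vehicle in red and ISOGK in blue. *Pemt* is highest in both groups and *Phospho1* goes from 0.936 to 12.2 CPM per kb.

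Around these 9 genes, 81 others of choline and phospholipid metabolism were listed by role, of which 77 were in the table and 72 were tested. With ISOGK, 8 rose and 3 fell at an edgeR adjusted p under 0.05, beside 4.11% and 3.44% of all genes tested, and 61 did not pass. Their median log2 fold change was 0.08. The lists differ in size and were written with earlier results of these data known, so nothing is read from the counts per list. The count of 11 was 4 without ISOGK-treated mouse 2, 6 without ISOGK-treated mouse 4, 5 without vehicle-treated mouse 2 or 3, 6 without vehicle-treated mouse 4 and 7 without vehicle-treated mouse 1. *Mat1a*, *Gamt*, *Pctp* and *Abcb4* passed under all 16 alternatives.

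Choline oxidation and methyl supply feeds the methyl groups that Pemt uses. In this list, 3 of 15 genes were called higher and 1 lower, beside 4.11% and 3.44% of all genes tested (median log2 fold change 0.08). *Mat1a*, which encodes the liver enzyme that makes S-adenosylmethionine, was at 6605, 6235, 4929 and 6063 CPM with vehicle and 10806, 14458, 13857 and 14488 CPM with ISOGK in mice 1 to 4. It rose without overlap by a log2 fold change of 1.17 (SE 0.13, edgeR adjusted p = 0.000726). *Gamt*, which consumes S-adenosylmethionine to make creatine, fell from 69.6 ± 7.62 to 34.0 ± 4.66 CPM (SD, n = 4 each, log2 fold change -1.03, SE 0.12, edgeR adjusted p = 0.000738). *Ahcy*, which hydrolyzes S-adenosylhomocysteine, rose from 2835 ± 119 to 3897 ± 322 CPM (SD, n = 4 each, log2 fold change 0.46, edgeR adjusted p = 0.0152), a call lost in 2 of 16 alternatives, without ISOGK-treated mouse 2 (0.0531) and with library size alone (0.0672). *Bhmt2*, a homocysteine methyltransferase gene, rose from 142.8 ± 20.7 to 195.6 ± 18.7 CPM (SD, n = 4 each, log2 fold change 0.45, edgeR adjusted p = 0.0387), a call lost in 7 of 16 alternatives, namely without ISOGK-treated mouse 2 (0.1) or 3 (0.0605), without vehicle-treated mouse 2 (0.11), 3 (0.108) or 4 (0.0847), with library size alone (0.106) and with the replicate block (0.0665). *Nnmt* (log2 fold change 0.90, adjusted p = 0.0746), *Mtr* (-0.50, adjusted p = 0.0788) and *Mat2b* (0.23, adjusted p = 0.193) did not pass in the edgeR fit used throughout. *Nnmt* passed in 4 of 16 alternatives, without the robust option (0.0475), by DESeq2 (0.00351) and without ISOGK-treated mouse 1 (0.0453) or 3 (0.0281), and *Mtr* in 3, by DESeq2 (0.0454), with library size alone (0.0468) and without ISOGK-treated mouse 1 (0.0307).

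Among genes that move phosphatidylcholine, 2 of 6 rose and 0 fell, beside 4.11% and 3.44% of all genes tested (median log2 fold change 0.37). *Pctp*, the phosphatidylcholine transfer protein gene, was at 59.6, 43.0, 54.2 and 58.5 CPM with vehicle and 105.9, 116.9, 114.7 and 97.1 CPM with ISOGK (log2 fold change 1.01, SE 0.12, edgeR adjusted p = 0.000738). *Abcb4*, which exports phosphatidylcholine into bile, was at 241.7, 187.4, 208.8 and 196.4 CPM with vehicle and 369.3, 394.2, 377.6 and 313.4 CPM with ISOGK (log2 fold change 0.80, SE 0.11, edgeR adjusted p = 0.00178). The groups did not overlap for either gene. *Pltp* (log2 fold change -0.43, adjusted p = 0.0818), *Mfsd2a* (0.57, adjusted p = 0.212) and *Stard10* (0.17, adjusted p = 0.361) did not pass, although *Pltp* did in 3 of 16 alternatives, by DESeq2 (0.0463), with library size alone (0.041) and with the replicate block (0.0442).

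**Figure D5:**
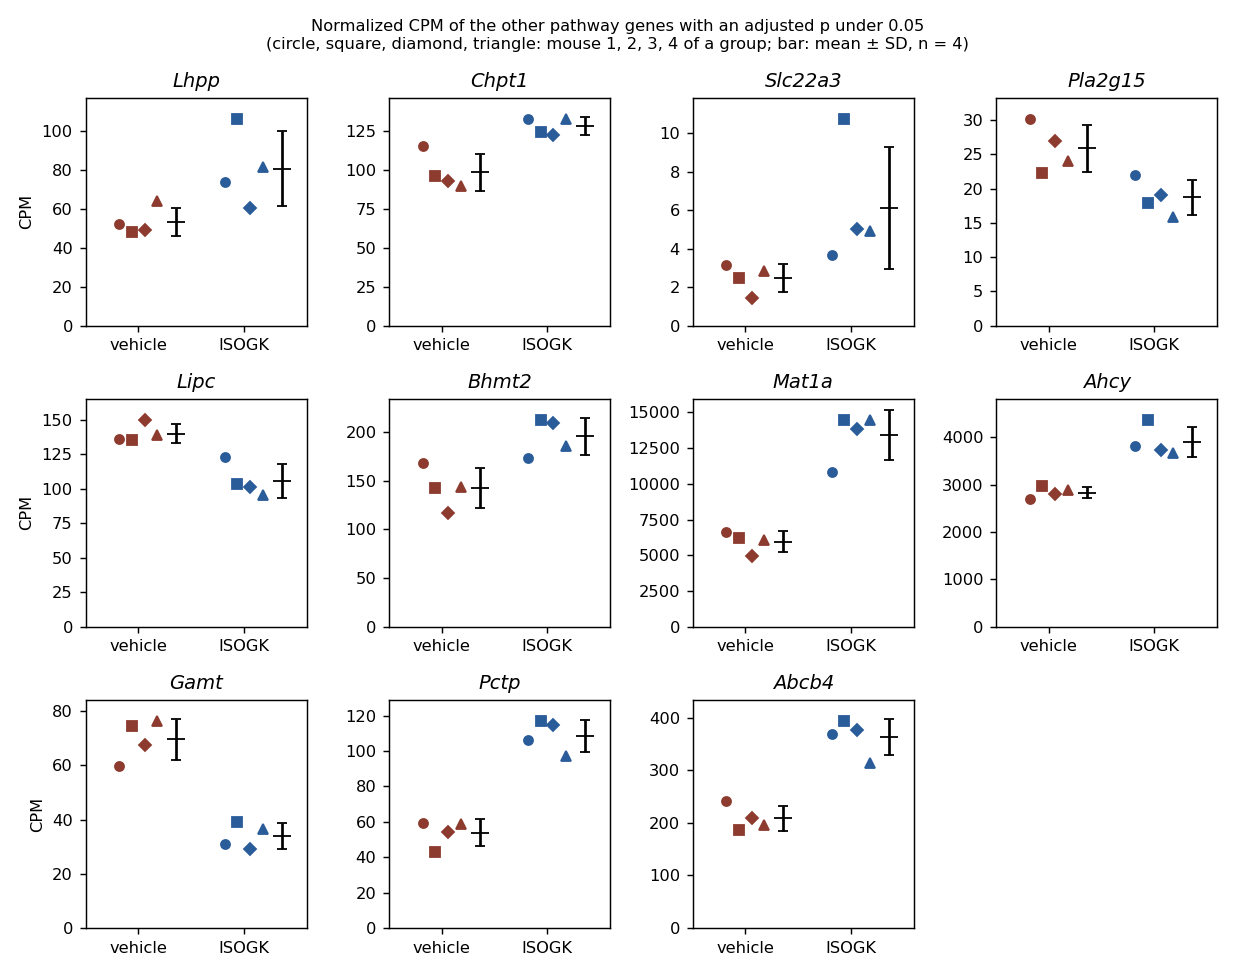
Normalized CPM (y axes, linear from 0) of the 11 other pathway genes called at an adjusted p under 0.05, in 4 vehicle-treated (red) and 4 ISOGK-treated (blue) mice; symbols mark mice 1 to 4 and bars the mean ± SD. The groups do not overlap for 10 of the 11, *Lhpp* being the exception, beside 15.3% of all genes tested. The 11 were picked by a test of these same values, so nothing is read from that count. *Lipc*, *Pla2g15* and *Gamt* are the genes that are lower with ISOGK.

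Of the 2 other genes tested on the CDP-choline and CDP-ethanolamine routes, 1 rose and 0 fell, beside 4.11% and 3.44% of all genes tested. *Chpt1*, the cholinephosphotransferase gene that shares the last step with *Cept1*, was at 115.4, 95.8, 92.6 and 89.6 CPM with vehicle and 132.9, 124.3, 122.5 and 132.9 CPM with ISOGK (log2 fold change 0.38, SE 0.10, edgeR adjusted p = 0.0371). *Selenoi*, the ethanolamine counterpart, had a log2 fold change of 0.44 (SE 0.13, edgeR adjusted p = 0.0596, but 0.0126 without ISOGK-treated mouse 1 and 0.0321 by DESeq2), and *Pcyt1b*, at 2 to 5 counts, was not tested. The call of *Chpt1* was lost in 7 of 16 alternatives, including without ISOGK-treated mouse 1 (adjusted p = 0.0687), 2 (0.0701) or 4 (0.0641) and without vehicle-treated mouse 2 (0.114), 3 (0.111) or 4 (0.0998).

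Of the phosphatases related to *Phospho1* and other genes of phosphoethanolamine breakdown, 1 of 4 tested rose and 0 fell, beside 4.11% and 3.44% of all genes tested. Their median log2 fold change was 0.41. *Phospho2*, the closest relative by name, was at 20.7 ± 2.92 CPM with vehicle and 20.99 ± 1.41 CPM with ISOGK (SD, n = 4 each, log2 fold change 0.02, SE 0.11, edgeR adjusted p = 0.933), a value whose sign turned with library size alone. *Lhpp* was called higher, from 53.4 ± 7.22 to 80.7 ± 19.3 CPM (SD, n = 4 each, log2 fold change 0.60, SE 0.16, edgeR adjusted p = 0.0444), although its groups overlapped, and the call was lost in 8 of 16 alternatives. Its adjusted p was 0.0508 without ISOGK-treated mouse 1, 0.0959 without mouse 2 and 0.0955 without mouse 4, and 0.11, 0.132 and 0.116 without vehicle-treated mice 1, 2 and 3. *Alpl*, the phosphatase that works beside Phospho1 in bone, had a log2 fold change of 0.22 (SE 0.17, adjusted p = 0.468), and *Etnppl*, a phospholyase gene for phosphoethanolamine, had 0.77 (SE 0.36, adjusted p = 0.237). *Pdxp*, at 0 to 6 counts, was not tested.

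Of 20 genes for the hydrolysis of phosphatidylcholine and its products, 0 rose and 2 fell, beside 4.11% and 3.44% of all genes tested (median log2 fold change 0.06). *Lipc*, the hepatic lipase gene, was at 135.7, 134.9, 149.8 and 139.2 CPM with vehicle and 123.3, 103.1, 100.9 and 95.5 CPM with ISOGK (log2 fold change -0.40, SE 0.10, edgeR adjusted p = 0.0299). *Pla2g15*, a lysosomal phospholipase gene, fell from 25.9 ± 3.49 to 18.7 ± 2.57 CPM (SD, n = 4 each, log2 fold change -0.46, SE 0.13, edgeR adjusted p = 0.0461). The call of *Lipc* was lost without ISOGK-treated mouse 2 or 4 or any vehicle-treated mouse (adjusted p 0.0577 to 0.0922), and that of *Pla2g15* without ISOGK-treated mouse 2, 3 or 4 or any vehicle-treated mouse (0.0583 to 0.131) and with limma-voom (0.0554). *Lypla2* (log2 fold change 0.33, adjusted p = 0.136), *Pnpla6* (-0.37, adjusted p = 0.19) and *Enpp2* (-0.37, adjusted p = 0.19) did not pass by edgeR.

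The remaining lists held 1 call among 25 genes tested, beside 7.55% of all genes tested that were called. In choline and ethanolamine uptake, 1 of 7 rose (median log2 fold change 0.09): *Slc22a3*, an organic cation transporter gene, was at 3.16, 2.49, 1.44 and 2.81 CPM with vehicle and 3.68, 10.8, 5.03 and 4.92 CPM with ISOGK (log2 fold change 1.31, SE 0.35, edgeR adjusted p = 0.0487). That call was lost in 12 of 16 alternatives, with a log2 fold change of 0.88 without ISOGK-treated mouse 2 and an adjusted p of 0.0585 to 0.126 when any mouse other than ISOGK-treated mouse 1 was left out. *Slc44a1*, a choline transporter gene, had a log2 fold change of -0.34 (adjusted p = 0.114, but 0.038 with library size alone), *Slc44a3* of -0.39 (adjusted p = 0.359) and *Flvcr2* of 0.30 (adjusted p = 0.303). In the phosphatidylserine route 0 of 3 passed (median 0.15), with *Pisd* at 0.21 (adjusted p = 0.313), *Ptdss2* at 0.15 (adjusted p = 0.506) and *Ptdss1* at 0.03 (adjusted p = 0.879), the last turning negative with library size alone. In phospholipid remodelling 0 of 8 passed (median 0.17), with *Mboat7* at -0.26 (adjusted p = 0.0859, but 0.0373 with library size alone), *Lpcat3* at 0.30 (adjusted p = 0.19) and *Mboat1*, at 1 to 11 counts, at 1.16 (adjusted p = 0.272). In sphingomyelin synthesis and breakdown 0 of 7 passed (median 0.01), with *Smpd1* at -0.25 (adjusted p = 0.0849, but 0.0346 by DESeq2 and 0.0209 with library size alone), *Smpd3* at 0.86 (adjusted p = 0.259) and *Smpd2* at -0.11 (adjusted p = 0.586). Over these 4 lists, the edgeR test at an unadjusted p under 0.05 gave 2, 0, 2 and 1 genes in the same order. The share of all genes tested at that threshold is not given here, so nothing is read from these counts.

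Finally, the pattern of *Phospho1* over the 8 mice was compared with that of each of the other 12306 genes tested, by Pearson's r of log2 CPM, as a description in which all points share the libraries and the treatment. The most alike were *Kiz* (r = 0.993), *Cops6* (0.993), *Scamp5* (0.988), *Acot2* (0.988) and *Lars* (0.988). *Acot2*, a mitochondrial acyl-CoA thioesterase gene, was at 4.47, 2.85, 3.97 and 4.47 CPM with vehicle and 8.19, 14.2, 11.5 and 18.2 CPM with ISOGK. Its lowest and highest ISOGK-treated mice were those of *Phospho1*, as they were for *Kiz* and *Lars*. Genes picked by their r tend to share this order, so nothing is read from it. After the mean of each group was subtracted, the most alike were *Mmp14* (0.984), *0610012G03Rik* (0.984), *Actr1b* (0.981), *Wdr74* (0.98) and *Apmap* (0.978). Among the members, *Chkb* had an r of 0.964 with *Phospho1* (place 54) and of 0.932 within groups (place 41). *Chka* had 0.727 (place 1581) and 0.75 (place 714), and *Etnk2* had -0.80 (place 11320) and -0.56 (place 10516). The other members, in the same order, had 0.53 and 0.30 (*Pcyt1a*), 0.53 and 0.46 (*Pcyt2*), 0.56 and -0.18 (*Cept1*), 0.08 and 0.62 (*Pemt*), and -0.18 and 0.25 (*Etnk1*). Without any 1 mouse, 1 to 4 of the first 5 genes and 0 to 3 of the second 5 were still among the most alike, so the order rests on single mice.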

How the data were processed

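Liver RNA of 4 vehicle-treated and 4 ISOGK-treated *Apoe*-/- mice was sequenced single-end, with 1 library per sample. The labels number the samples without stating that each is a separate animal, and each was taken as 1 mouse. The p-values set the difference between groups against the spread between these samples. The authors aligned reads with HISAT2 2.0.5 to mm10 (build from the submitters' processing notes) and took raw gene counts from StringTie 1.3.3b, and the deposited table holds whole-number counts without normalization. The annotation release and strand setting are not given in the sources used here. Columns named DMSO were taken as the vehicle group. Symbols were placed on GENCODE M21, where 16189 of 16540 matched 1 gene.

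Low counts were removed with filterByExpr of edgeR (minimum count 10, minimum total 15), normalized with TMM and tested with the robust quasi-likelihood test of edgeR 4.0.16 in R 4.3.3, with Benjamini-Hochberg adjustment over 12307 genes. Called means an adjusted p under 0.05. The standard error (SE) of a log2 fold change was derived as its absolute value divided by the square root of the F statistic of that test. Log2 CPM used a prior count of 2. The common biological coefficient of variation was 0.164, and counting precision covers counting error only. No libraries were duplicates, with a chi-square per gene of at least 18.1 within groups.

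The members, gene lists and markers were chosen with earlier results of these data known, and 1 listed gene is not reported here. Named genes were the 9 members, every list gene called, up to 3 further genes per list with the smallest p, *Phospho2* and *Alpl*, and the 5 genes most like *Phospho1* over all mice and within groups; genes at the loci were added after their values were seen. Alternatives were DESeq2 1.42.0 (Wald test or size factors), limma-voom (limma 3.58.1), library size alone, at least 10 counts in every library, at least 1 count in any, no robust option, a replicate block, and each mouse left out, as well as a prior count of 0.5 for the likeness. The likeness without each mouse and the order by longest coding transcript were added after the data were seen. The tests were run first on simulated counts with known changes.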

Additional observations from a re-analysis of the deposited data

Results flagged for a closer look

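Of 114 sets of 4 mice examined, 6 had 1 mouse whose gap to its nearest neighbor, as a share of the range of the group, passed Dixon's critical value for 4 samples, where chance gives about 1 in 20, or 5.7. None of the 9 members was among them. *Slc44a1* was at 35.7 CPM in ISOGK-treated mouse 2 and at 29.3 to 29.97 CPM in the other mice of the group (gap 0.9 of the range). *Lpcat3* was at 108.8 CPM in the same mouse and at 74.0 to 76.5 CPM in the others (0.929). *Enpp2* was at 108.0 CPM in vehicle-treated mouse 1 and at 72.5 to 77.7 CPM in the others (0.854). *Smpd2* was at 16.8 CPM in vehicle-treated mouse 3 and at 19.5 to 19.8 CPM in the others (0.885). *Scamp5* was at 11.5 CPM in vehicle-treated mouse 4 and at 9.58 to 9.81 CPM in the others (0.882). In the same library, which also held the skeletal muscle transcripts, 15369 genes had a count, against 14997 to 15042 in the other vehicle libraries (0.879).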

How the results depend on the processing

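Of 144 values of the 9 members under the alternatives, 134 kept their direction and their side of the threshold, 5 lost a call, all of *Phospho1* and all with 1 mouse left out, 2 gained a call without ISOGK-treated mouse 1 (*Chka* and *Etnk2*), and 3 changed sign: *Cept1* to -0.025 and *Pcyt1a* to -0.0356 with library size alone, and *Pemt* without ISOGK-treated mouse 3 (-0.193 to 0.0188 with 1 mouse left out). Of 574 values of 36 other named genes, 502 kept both, 50 lost a call, 16 gained one and 6 changed sign: *Phospho2* to -0.111 with library size alone and without ISOGK-treated mouse 4 or vehicle-treated mouse 2 or 4 (-0.0248 to 0.123 with 1 mouse left out), and *Ptdss1* to -0.105 with library size alone and without ISOGK-treated mouse 4 (-0.0709 to 0.0839 with 1 mouse left out). Of 63 values of the 4 genes at the loci, 57 kept both and 6 changed sign, at -0.083 to 0.0785 for *Abi3* and -0.0637 to 0.0509 for *Zfp652* with 1 mouse left out. The cause was not tested.

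With 1 mouse left out, 1 to 4 members were called against 2, 0 to 1 with a log2 fold change over 1 against 1, 4 to 12 other pathway genes against 11, 379 to 1235 of all genes against 929, and 123 to 250 of all genes with a log2 fold change over 1 against 200, the group without that mouse holding 3. The Wald test of DESeq2 called 1435 genes. Of the 5 genes most like *Phospho1*, 3 were shared with library size alone and 1 to 4 with 1 mouse left out, and of the 5 within groups, 2 and 0 to 3.

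The replicate numbers pair no mice by the labels, and the correlations of same-numbered mice were 0.013, -0.0144, 0.0754 and 0.0849. With the replicate number as a block, 2 members, 11 other pathway genes and 827 of all genes were called, and 170 with a log2 fold change over 1. Among named genes, *Bhmt2* (adjusted p = 0.0665) and *Slc22a3* (0.0593) lost their calls under the block and *Pltp* (0.0442) gained one, so the same count did not mean the same genes. *Phospho1* had a log2 fold change of 3.50. *Phospho1*, at 29 to 68 counts in vehicle-treated mice, is the member with the fewest counts; the others had at least 305 in every mouse.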
